A study of Mus musculus with 24 samples.

Results

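Cholesterol synthesis was followed through 8 genes of the route from acetyl-CoA to cholesterol: *Hmgcs1*, *Mvd*, *Fdps*, *Fdft1*, *Sqle*, *Lss*, *Cyp51* and *Dhcr7*. They were chosen by symbol, as enzymes of that route, from the 24456 genes listed in each count table, and all 8 passed the filter on low counts that left 17170 genes for testing. Testis RNA was sequenced in mice without *Atad2* (homozygous knockout, KO) and in wild-type (WT) mice during the first spermatogenic wave, when post-meiotic germ cells first appear. ATAD2 binds chromatin through its bromodomain and uses ATP, and the question was what becomes of transcription when it is lost. In the KO allele a *lacZ* cassette is spliced to an upstream *Atad2* exon, and a cross to mice with ubiquitous CMV-driven Cre removed the *neo* cassette and the exon that follows. Testes were taken at postnatal days 20, 22, 24 and 26, with 4 libraries per genotype at days 20 and 22 and 2 per genotype at days 24 and 26. The mice were not otherwise treated, their strain background is not given in the sources used here, and the deletion is in every cell of the body and not in germ cells alone. The labels give the tissue as testis, although their protocol text also names a purification of germ cell fractions. All 9 Sertoli cell markers and all 8 Leydig cell markers had counts in every library, so somatic cells were present in the RNA. A library name such as WT_d20_2 gives the genotype, the day and the replicate.

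Cells make cholesterol from acetyl-CoA through mevalonate, isoprenoid units, squalene and lanosterol, and genes of the route are commonly switched on together by the factor SREBP2 when sterols are low. In the testis, Leydig cells use cholesterol to make testosterone, and germ cells use it for membranes. Male germ cells are known to run the route under a further control that involves the cAMP-responsive factor CREM, and the sterols formed just after the step of the lanosterol demethylase *Cyp51* are known to build up in testis.

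The promoters of *Hmgcs1* and *Cyp51* are shown because *Hmgcs1* is a classic target of SREBP2 and *Cyp51* of both SREBP2 and CREM, and because their levels went different ways with age in KO testis. The RefSeq table of build GRCm38.p6 had promoters for 5 of the 8 members, namely *Hmgcs1*, *Mvd*, *Lss*, *Cyp51* and *Dhcr7*, and had no entry for *Fdps*, *Fdft1* and *Sqle*. Each window runs from 250 bases before to 50 bases after the transcription start and was searched on both strands for the sterol element TCACNCCAC, the cAMP element TGACGTCA, its first 5 letters TGACG, and the CCAAT box, the last of which reads ATTGG when it lies on the other strand. The capitals mark the matches. The *Hmgcs1* window is on chr13:119690101-119690400, plus strand, and that of *Cyp51* on chr5:4104648-4104947, minus strand.
*Hmgcs1*: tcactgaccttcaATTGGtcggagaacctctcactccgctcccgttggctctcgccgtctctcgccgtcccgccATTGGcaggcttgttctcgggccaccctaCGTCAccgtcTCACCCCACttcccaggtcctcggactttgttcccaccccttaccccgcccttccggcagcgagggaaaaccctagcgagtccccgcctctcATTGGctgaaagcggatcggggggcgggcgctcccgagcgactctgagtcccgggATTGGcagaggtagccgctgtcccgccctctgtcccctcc
*Cyp51*: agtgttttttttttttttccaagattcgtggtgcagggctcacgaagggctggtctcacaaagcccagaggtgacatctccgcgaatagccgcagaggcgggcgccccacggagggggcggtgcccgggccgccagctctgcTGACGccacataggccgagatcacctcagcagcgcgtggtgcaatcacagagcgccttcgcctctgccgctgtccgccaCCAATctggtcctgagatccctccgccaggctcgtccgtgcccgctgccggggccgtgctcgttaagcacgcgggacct

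With the start site as position 0, *Hmgcs1* held the sterol element from -137 to -129, TGACG on the other strand from -147 to -143, and 4 CCAAT boxes on the other strand. *Cyp51* held TGACG from -108 to -104 and CCAAT from -29 to -25, and its window had no exact match to TCACNCCAC. Other forms of the sterol element were not searched, so a sterol element in this window is not excluded. Of all 32851 promoters in the table, 1.24% held the sterol element, 1.79% the whole cAMP element, 20.8% TGACG and 37.4% CCAAT, and no window of the 5 members held the whole cAMP element. *Mvd* held CCAAT at 2 places, *Lss* at 1 place, and 1 of the 3 *Dhcr7* windows at 2 places. A match is a run of letters and was not tested as a binding site.

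The assigned counts summed to between 10709667 and 19491935 per library, and the smallest count of a member in any library was 39, for *Mvd*. Levels are given as CPM, in which counts are set to a common library size with TMM (trimmed mean of M values) factors. *Atad2* itself was lower in KO at every day, with 30.8 to 53.0 CPM over the 12 KO libraries and 76.1 to 171 CPM over the 12 WT libraries. Its change was called at days 20, 22 and 24, and its log2 fold change at day 26 was -1.25 (edgeR quasi-likelihood test, adjusted p = 0.0628). The shallowest library, WT_d20_2, stood apart. Mitochondrial rRNA took 3.26% of its assigned counts (0.17% to 1.06% in the other 23), and 13.7% of its table were pairs with several alignments (4.74% to 9.16% in the others). Its counts differed from those of the other 3 WT libraries of day 20 with a chi-square of 94.2 to 129 per degree of freedom, and those 3 differed from each other with 14.0 to 28.5. It had the highest *Hmgcs1*, *Fdps*, *Cyp51* and *Dhcr7* levels and the lowest *Sqle*, *Lss* and *Mvd* levels of its group. Its *Atad2* level, 171 CPM, was the top of the WT range. Without it the numbers of members called were the same in every comparison, and the described fold changes that it moved by over 1.5 times or turned in sign are also given without it. RNA from whole testis cannot tell fewer cells of a type from less RNA per cell. The sample labels do not say that replicates came from separate animals, although the methods call them biological replicates, so p-values measure the spread between these samples.

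On a per-length scale (CPM per kilobase of exon), *Hmgcs1*, which makes HMG-CoA from acetoacetyl-CoA, was the most abundant member in WT testis at day 20, at 41.9 ± 6.32 (SD, n = 4). *Fdft1*, squalene synthase, followed at 23.4 ± 3.01. *Cyp51* and *Sqle*, squalene epoxidase, were at 12.4 ± 4.07 and 10.3 ± 1.71, and these neighbours overlapped. Without WT_d20_2 they were at 10.4 ± 0.778 and 10.8 ± 1.57 (SD, n = 3), in the opposite order. *Fdps*, which makes farnesyl diphosphate, and *Dhcr7*, which catalyzes the closing reduction of 7-dehydrocholesterol, had 6.26 and 4.43. *Mvd*, mevalonate diphosphate decarboxylase, and *Lss*, which closes squalene epoxide to lanosterol, were the lowest at 3.29 each. At day 26 *Fdft1* stood at 60.9 and *Hmgcs1* at 53.6 in WT. This order depended on the length used: with the principal transcript of each gene in place of all its exons, *Hmgcs1* was at 55.5 and *Cyp51*, at 14.0, was below *Sqle* at 20.6 and *Fdps* at 19.1 in WT at day 20, and at day 26 *Hmgcs1*, at 71.0, was above *Fdft1*, at 69.6. *Fdps* and *Fdft1* have near-identical copies elsewhere in the genome, *Gm3571* at 98.87% identity over 1062 bases and *Gm6781* at 97.438% over 1249 bases. Pairs with several alignments were discarded, so the levels of both genes are uncertain. *Hmgcs1* and *Dhcr7* also share shorter stretches with transcripts of other genes, such as 462 bases with *Gm48342* (100% identity) and 226 with *Gm47486* (98.23%). Exons of *Fdps* overlap *Gm43738* on the same strand. How far these stretches and this overlap lower the levels was not measured.

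**Figure D1:**
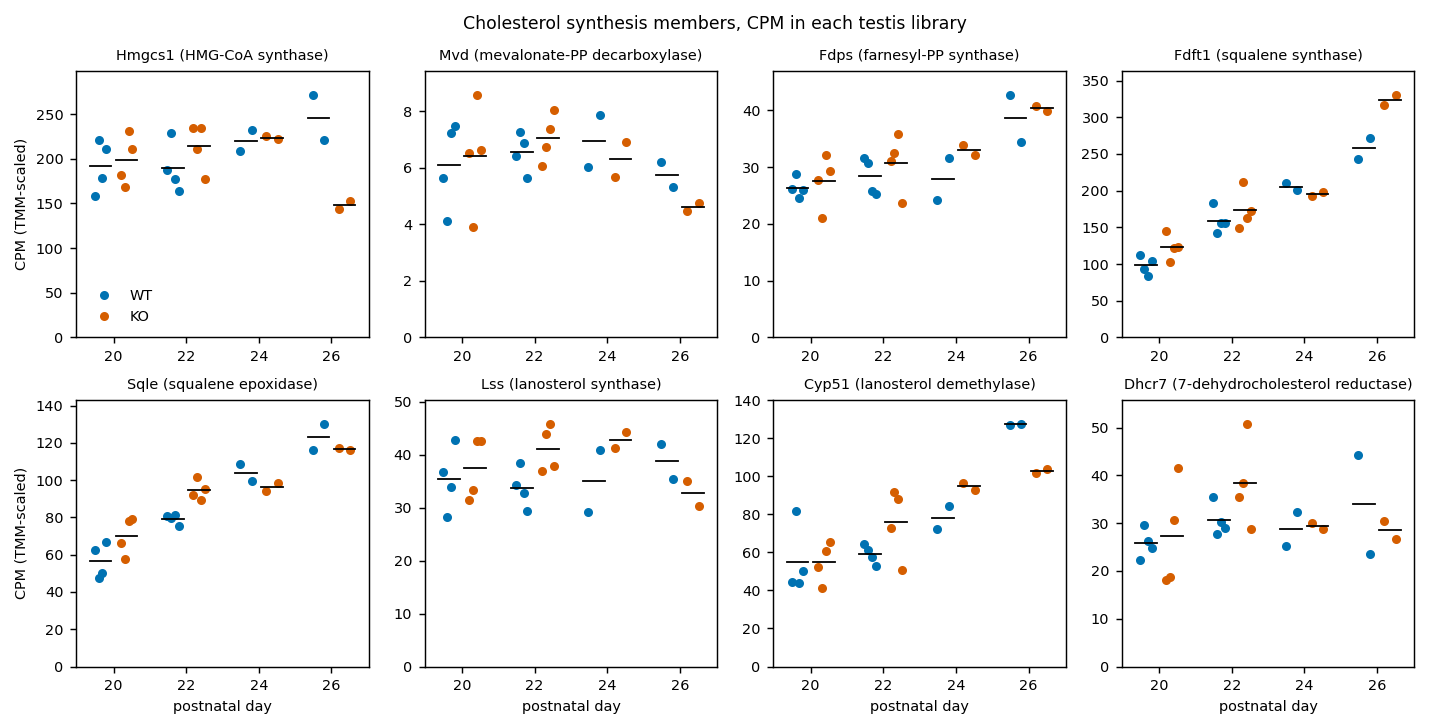
CPM (TMM-scaled) of each member in each of the 24 libraries, by postnatal day, for WT (blue) and KO (orange), with black bars at the group means and every axis starting at 0. *Fdft1* and *Sqle* climb from day 20 to day 26 in both genotypes, and *Hmgcs1* in the KO libraries of day 26, at 144 and 153 CPM, sits below every other library.

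Between days 20 and 26 the members split. In WT testis *Fdft1*, *Sqle*, *Cyp51* and *Fdps* rose, by 2.61-, 2.17-, 2.32- and 1.47-fold, and the other 4 were not called. These 4 of 8 members called higher stand against 24.4% of all tested genes called higher, and 0 members were called lower against 18.1% of all genes. The members were chosen with earlier results of these data known, so these shares do not test the route. Of 12 further enzymes of the route that were tested, 2 were called higher and 2 lower. The median log2 fold change of the members was 0.48, and that of all tested genes was -0.04. The 4 members that rose were also those whose day 26 libraries lay above every day 20 library, where 27.9% of all genes lay wholly above and 50.4% did not overlap.

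*Fdft1*, which commits farnesyl diphosphate to sterols, was at 113, 93.4, 83.8 and 105 CPM in the WT libraries of day 20 and at 244 and 271 CPM at day 26. The groups were far apart, by 1.38 on the log2 scale (SE 0.15, edgeR adjusted p = 2.48e-07). *Sqle*, the oxygen-dependent enzyme that turns squalene into its epoxide, was at 62.6, 47.5, 50.2 and 67.0 CPM in WT at day 20 and at 116 and 130 CPM at day 26. No library overlapped, and the difference on the log2 scale was 1.12 (SE 0.13, adjusted p = 9.11e-07). The *Sqle* gene lies on chr15:59315077-59331192, on the chromosome that carries *Atad2* (chr15:58094044-58135082).

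*Cyp51*, on chr5:4081145-4104746, was at 44.5, 81.5, 43.6 and 49.96 CPM in WT at day 20 and at 127 in both libraries of day 26. The 81.5 CPM came from WT_d20_2. The change on the log2 scale was 1.22 (SE 0.22, adjusted p = 0.00016), and without that library it was 1.42. *Fdps*, on chr3:89093588-89101959, was at 26.1, 28.8, 24.6 and 25.9 CPM at day 20 and at 42.8 and 34.4 CPM at day 26. These groups were apart by less than those of the other 3 genes. Its log2 fold change was 0.55 (SE 0.17, adjusted p = 0.0121), and without WT_d26 replicate 1 it was 0.38 and no longer called (adjusted p = 0.194).

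The other 4 members were not called in WT. *Hmgcs1*, on chr13:119690379-119708260, was at 159, 221, 178 and 211 CPM at day 20 and at 272 and 221 CPM at day 26, with a log2 fold change of 0.36 (SE 0.16, adjusted p = 0.0818). Its groups overlapped, and the value was 0.19 without WT_d26 replicate 1. *Lss* (chr10:76531588-76557138) and *Mvd* (chr8:122433601-122443422) had log2 fold changes of 0.13 (SE 0.17) and -0.10 (SE 0.25), and of -0.01 and -0.29 without WT_d20_2. *Dhcr7* (chr7:143823145-143848410) had 44.4 CPM in 1 WT library of day 26 and 23.6 CPM in the other, which gave 0.40 (SE 0.28). Its sign turned on that pair, since the value was -0.14 without WT_d26 replicate 1. *Fdft1*, on chr14:63145150-63179578, had the largest change of the 8 members in WT with all libraries, and without WT_d20_2 it was at 1.32, below *Cyp51* at 1.42.

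The rise of *Fdft1* and *Sqle* in WT was already called at the first step. From day 20 to day 22 their log2 fold changes were 0.69 (SE 0.12, adjusted p = 0.000679) and 0.48 (SE 0.11, adjusted p = 0.00537), and these 2 of 8 members compare with 12.9% of genes called higher. The 4 *Fdft1* libraries of day 22 were at 183, 142, 156 and 156 CPM and those of *Sqle* at 80.7, 79.6, 81.1 and 75.4 CPM, all above the day 20 libraries of the same gene, as was so for 13.2% of all genes and for no other member. From day 22 to day 24 edgeR called 0 members (5.88% of genes higher), with 2 members, *Fdft1* and *Sqle*, and 13% of all genes under an unadjusted p of 0.05, and DESeq2 also called 0 members. From day 24 to day 26 edgeR again called 0 members (0.262% of genes higher), with *Fdps* and *Cyp51* and 8% of all genes under an unadjusted p of 0.05 and 0 members called by DESeq2. *Cyp51* went from 64.2, 61.0, 57.5 and 52.9 CPM at day 22 to 72.3 and 84.2 CPM at day 24 and then to 127 CPM in both libraries of day 26. Its log2 fold changes over those 3 steps from day 20 were 0.11, 0.41 and 0.70, and those of *Fdft1* were 0.69, 0.37 and 0.33. The first step of *Cyp51* rested on WT_d20_2 and was 0.35 without it (adjusted p = 0.134), beside 0.66 for *Fdft1*. The second step of *Cyp51* was 0.27 without WT_d24 replicate 2. Without WT_d20_2 the first step of *Mvd* went from 0.08 to -0.07 and that of *Lss* from -0.08 to -0.18. The steps to days 24 and 26 rest on 2 libraries each, and the difference between the genes in timing was not tested.

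In KO testis the same 4 genes were called higher at day 26 than at day 20, and *Hmgcs1* was called lower. The 4 of 8 members called higher compare with 27.2% of all genes called higher, and the 1 called lower with 24.9% called lower. The choice of members limits these shares in the same way as in WT. The medians were 0.31 for the members and -0.07 for all genes. *Fdft1* went from 144, 102, 121 and 124 CPM to 317 and 331 CPM, a log2 fold change of 1.40 (SE 0.15, adjusted p = 5.81e-07). *Sqle* went from 66.3, 57.5, 78.1 and 79.1 CPM to 117 and 116 CPM, with 0.73 (SE 0.13, adjusted p = 0.00016). In both genes every day 26 library was above every day 20 library.

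*Cyp51* in KO was at 52.2, 41.2, 60.8 and 65.7 CPM at day 20 and at 102 and 104 CPM at day 26, with a log2 fold change of 0.90 (SE 0.22, adjusted p = 0.00238). *Fdps* was at 27.7, 21.1, 32.2 and 29.3 CPM at day 20 and at 40.8 and 40.0 CPM at day 26, with 0.55 (SE 0.17, adjusted p = 0.00968), and its call went when either KO library of day 26 was left out, with adjusted p up to 0.0655. Of all genes, 70% did not overlap between these groups. *Hmgcs1* was at 182, 169, 231 and 211 CPM in KO at day 20 and at 144 and 153 CPM at day 26. Both late libraries lay below the early ones, by -0.42 on the log2 scale (SE 0.17, adjusted p = 0.0411). That call was the least secure of the 5: it was lost with another size factor (adjusted p = 0.104), with DESeq2 (adjusted p = 0.0907) and without KO_d26 replicate 1 (adjusted p = 0.181). *Mvd*, *Lss* and *Dhcr7* in KO had log2 fold changes of -0.47 (SE 0.26), -0.20 (SE 0.18) and 0.06 (SE 0.28) and were not called. Leaving out each library took *Mvd* to between -0.65 and -0.30 and *Lss* to between -0.32 and -0.12.

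**Figure D2:**
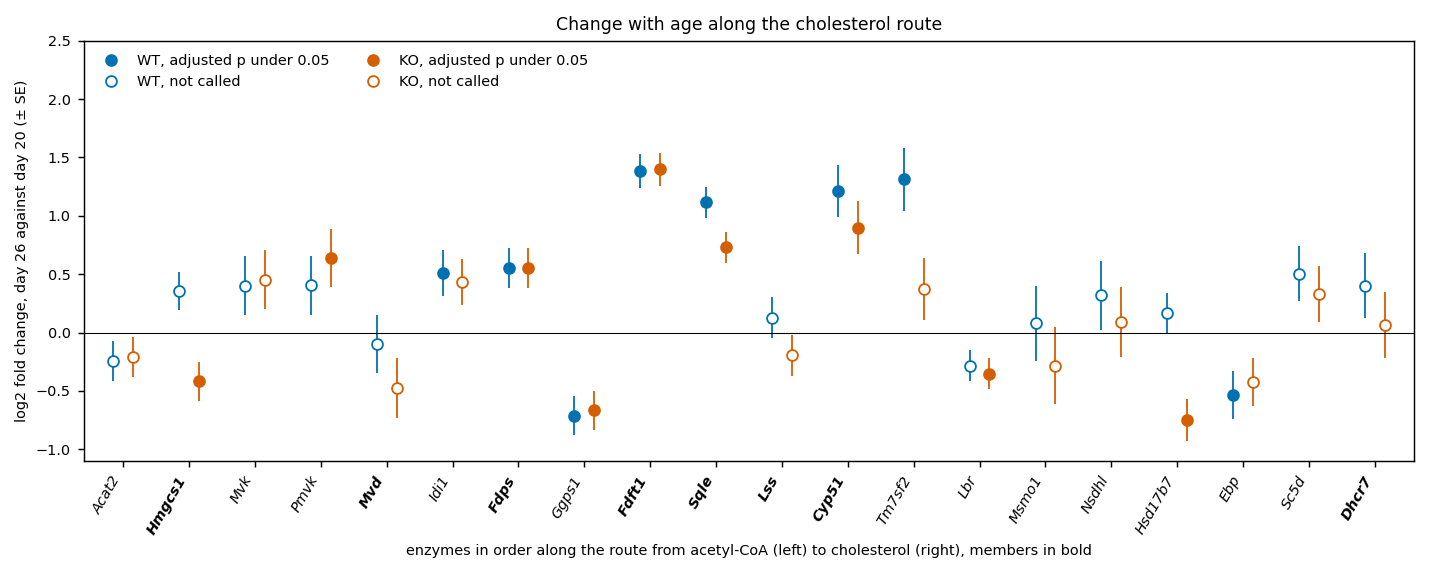
Log2 fold change at day 26 against day 20 (± SE) for 20 enzymes in their order along the route, in WT (blue) and KO (orange), with filled points for an adjusted p under 0.05 and the 8 members in bold. The largest member changes sit in the middle of the route, at *Fdft1*, *Sqle* and *Cyp51*, and *Hmgcs1* lies above 0 in WT at 0.36 and below 0 in KO at -0.42.

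The change with age was compared between genotypes directly. For *Hmgcs1* the change in KO minus that in WT was -0.77 on the log2 scale (SE 0.23, edgeR unadjusted p = 0.00317, adjusted p = 0.199), and it was not called. It lay between -0.92 and -0.61 when each library was left out in turn. This contrast called 0 of the 8 members with edgeR and 0 with DESeq2. The shares of genes called were 0% of 17170 with edgeR and 1.33% of those tested with DESeq2. With edgeR 1 member had an unadjusted p under 0.05, beside 10.8% of all genes. *Sqle* differed by -0.38 and *Cyp51* by -0.32, and *Fdft1* and *Fdps* by 0.01 and 0.00, with standard errors of 0.19, 0.33, 0.21 and 0.24. Without WT_d20_2 the differences of *Cyp51* and *Fdft1* were -0.53 and 0.08, and those of *Mvd* and *Lss*, at -0.37 and -0.33 with it, were -0.19 and -0.19. The differences of *Fdft1* and *Fdps* had no stable sign.

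KO was compared with WT at each day. No member was called at any day or over the mean of the 4 days, by edgeR or by DESeq2. The edgeR counts of 0 of 8 members compare with 3.34% of all genes called at day 20, 2.51% at day 22, 0.0874% at day 24, 0.0466% at day 26 and 7.08% over the mean of the days. An unadjusted p under 0.05 was found for 2 members at day 20 (*Fdft1* and *Sqle*), 1 at day 22 (*Sqle*), 0 at day 24, 1 at day 26 (*Hmgcs1*) and 1 over the mean of the days (*Fdft1*). The shares of all genes under that p were 12.5%, 14.6%, 5.23%, 11.5% and 23.2% in the same order, so 1 member of 8 is close to or below the background. Tested jointly, differences in the KO effect between days were called for 0 members and 0.00582% of all genes by edgeR. DESeq2 called 0 members and 1.56% of the genes it tested. With edgeR *Hmgcs1* was the 1 member under an unadjusted p of 0.05, beside 9.06% of all genes. All comparisons of KO with WT share their libraries with the comparisons of days.

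At day 26 *Hmgcs1* had the largest difference among the members: 144 and 153 CPM in KO and 272 and 221 CPM in WT. The 2 KO libraries lay below both WT libraries, as was so for 31.1% of all genes at that day. The log2 fold change was -0.73 (SE 0.19, edgeR unadjusted p = 0.000974, adjusted p = 0.15), a level in KO of 0.604 of that in WT. It ranged from -0.87 to -0.56 when each library was left out in turn, with adjusted p from 0.0637 to 0.97. A fit of the day 26 libraries alone called *Hmgcs1* (-0.72, adjusted p = 0.00432) and *Fdft1* (0.34, adjusted p = 0.0362), with the spread of 2 libraries per group, where the same fit called 12.8% of the genes it tested. Markers of 4 somatic cell types were also lower in KO at that day, with summed levels of 1070 to 1187 CPM in KO and 1273 to 2071 CPM in WT for the 8 Leydig cell markers and of 179 to 189 CPM and 194 to 276 CPM for the 5 macrophage markers. The 5 peritubular cell markers summed to between 270 and 313 CPM in KO and between 363 and 436 CPM in WT, and the 5 endothelial markers to between 32.8 and 37.2 CPM and between 51.6 and 52.0 CPM. All members of these 4 lists were lower in KO, with medians of -0.49, -0.31, -0.55 and -0.53 in the order given. The 5 pachytene markers were all higher, at 4712 to 4784 CPM in KO and 3639 to 3983 CPM in WT, with a median of 0.36. Among other germ cell markers, all 7 of elongating spermatids were higher (2763 to 2812 CPM in KO and 1591 to 2686 CPM in WT), the 5 of early meiosis had a higher sum (172 to 175 CPM and 139 to 143 CPM, over the 4 that could be tested), and the 5 of spermatogonia a lower one (130 to 132 CPM and 145 to 161 CPM). Round spermatid markers, with 4 of 7 higher, had a median of 0.07. Of the 9 Sertoli cell markers 8 were lower, with a median of -0.19, although their sum was higher, at 1193 to 1196 CPM in KO and 968 to 1105 CPM in WT. None of these markers was called or at 0, and their part in the *Hmgcs1* result was not tested.

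The other members at day 26 did not move one way. *Fdft1* was higher in KO without overlap, with a log2 fold change of 0.33 (SE 0.17), and *Mvd*, *Lss* and *Cyp51* were lower in KO without overlap, with -0.32, -0.25 and -0.31. Without WT_d26 replicate 1 *Mvd* was at -0.19 and *Lss* at -0.11. Over all genes 59% did not overlap at that day. *Fdps*, *Sqle* and *Dhcr7* overlapped, at 0.06, -0.08 and -0.25, and each of these 3 changed sign when 1 of the WT libraries of day 26 was left out. The median of the 8 was -0.25, beside -0.04 for all genes.

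At days 20 and 22 all 8 members had a fitted log2 fold change above 0, with medians of 0.07 and 0.22 beside 0.00 and 0.01 for all genes. The day 20 signs were not stable: 6 of the 8 members turned in sign when at least 1 library was left out, and 7 were below 0 with a germ cell stage score (round spermatid minus pachytene marker score) as a covariate. Without WT_d20_2, 6 members were above 0 with a median of 0.12, and *Cyp51* went from 0.01 to 0.24, *Hmgcs1* from 0.05 to 0.10, *Dhcr7* from 0.08 to 0.14, *Mvd* from 0.06 to -0.10 and *Lss* from 0.08 to -0.03. At day 22 no member turned when 1 library was left out, and 3 were below 0 with the stage score. At day 20 the KO levels of *Sqle* and *Fdft1* were 70.3 ± 10.3 and 123 ± 17.2 CPM (SD, n = 4) and the WT levels 56.8 ± 9.46 and 98.7 ± 12.7 CPM. The log2 fold changes were 0.31 (SE 0.11, adjusted p = 0.196) and 0.32 (SE 0.12, adjusted p = 0.236), and every member overlapped between genotypes, beside 4.71% of genes that did not. At day 22 *Sqle* was the 1 member without overlap, where 3.64% of genes lay wholly above: KO libraries were at 92.2, 102, 89.4 and 95.1 CPM and WT at 75.4 to 81.1 CPM, with 0.26 (SE 0.11, adjusted p = 0.273). Cell-type markers moved with these differences. All 7 round spermatid markers were called higher in KO at day 20, with a median log2 fold change of 3.54 and a summed level of 11.5 to 99.2 CPM in KO and 3.79 to 12.9 CPM in WT. Of these markers, *Spaca7* and *Catsper3* were at 0 in 1 and 2 of the WT libraries of day 20. At day 22 all 7 were higher with 0 called by edgeR, 7 under an unadjusted p of 0.05 and a median of 1.26. Of the 7 elongating spermatid markers 3 were called higher at day 20 and 4 at day 22, with medians of 3.41 and 4.46. The day 20 median rests on near-zero counts, since *Prm1*, *Prm2* and *Tnp1* were at 0 in 1, 2 and 3 of the WT libraries and these 3 and *Tnp2* in 1 KO library each. All 8 Leydig cell markers were higher at day 20 and 6 at day 22, with medians of 0.57 and 0.51 and 1 called, at day 22. The 5 peritubular and 5 endothelial markers were all lower at both days, with medians of -0.43 and -0.39 at day 20 and of -0.67 and -0.62 at day 22, and 1 endothelial marker was called, at day 22. The part of these markers in the differences of the members between genotypes was not tested.

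At day 24, with 2 libraries per genotype, 5 of the 8 members were above 0, with a median of 0.03 beside -0.01 for all genes. *Fdft1* and *Sqle* had uncalled values above 0 at days 20 and 22. Of these, *Fdft1* at day 22 overlapped between genotypes, at 0.13 (SE 0.12), and was at 0.02 without KO_d22 replicate 2. At day 24 the KO libraries of both genes lay below WT without overlap, and neither was called. *Fdft1* was at 193 and 198 CPM in KO and at 210 and 201 CPM in WT (-0.07, SE 0.17), and *Sqle* at 94.1 and 98.6 CPM in KO and at 109 and 99.6 CPM in WT (-0.11, SE 0.16). *Fdps*, *Lss* and *Cyp51* were higher without overlap, with 0.24, 0.29 and 0.28. Without WT_d24 replicate 1 they were at 0.06, 0.07 and 0.17, and without WT_d24 replicate 2 at 0.46, 0.56 and 0.41. *Fdft1* and *Sqle* were at -0.040 and -0.046 without WT_d24 replicate 1. These 5 members compare with 44% of all genes that did not overlap. Leydig cell markers summed to between 1061 and 1305 CPM in KO and between 589 and 851 CPM in WT, with 7 of 8 higher, and elongating spermatid markers to between 639 and 1394 CPM and between 350 and 381 CPM, with all 7 higher. All 5 macrophage markers were higher and all 5 endothelial markers lower, with medians of 0.21 and -0.49. Of the 5 peritubular markers 2 were higher, with a median of -0.25. None of these markers was called, and their part was not tested.

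**Figure D3:**
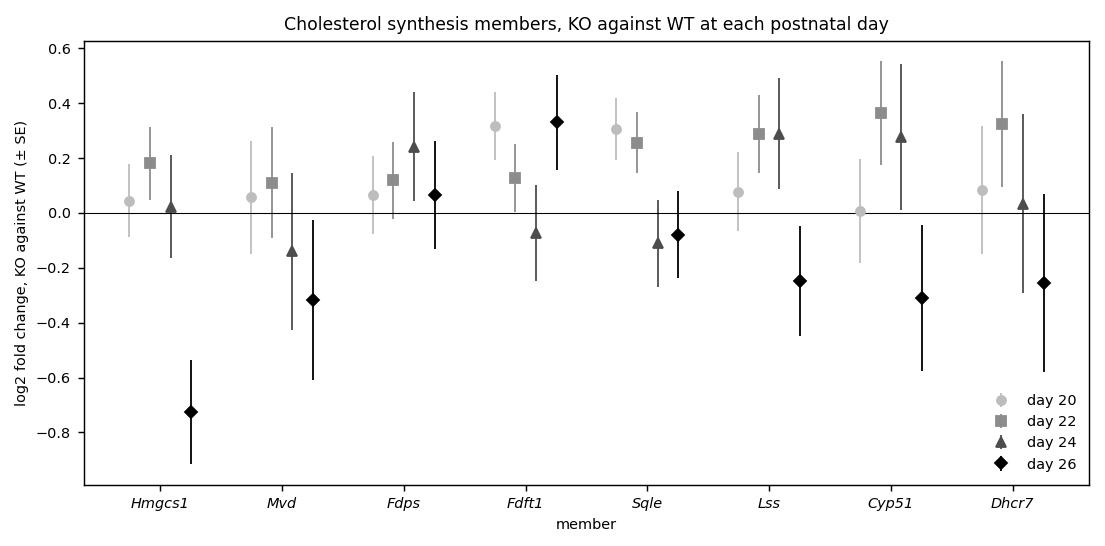
Log2 fold change of KO against WT (± SE) for each member at each postnatal day, with darker symbols for later days. *Hmgcs1* at day 26, at -0.73, is the point farthest from 0, and all others lie between -0.32 and 0.36.

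A further 13 enzymes of the route did not follow 1 direction with age. Of the 12 that could be tested (*Idi2* did not pass the filter), 2 rose and 2 fell in WT, with a median log2 fold change of 0.24. Over all tested genes 24.4% were called higher and 18.1% lower, so these counts are near the background. *Tm7sf2*, a sterol reductase, rose by 1.31 on the log2 scale (adjusted p = 0.000465) and *Idi1*, an isomerase of isoprenoid units, by 0.51 (adjusted p = 0.0412). *Ggps1*, which diverts farnesyl diphosphate away from sterols, fell by 0.71 and *Ebp*, a sterol isomerase, fell by 0.54. In KO 1 rose, *Pmvk* (0.64), a kinase of the mevalonate steps, and 3 fell, *Hsd17b7* (-0.75), *Ggps1* (-0.67) and *Lbr* (-0.35). The shares of all genes in KO were 27.2% higher and 24.9% lower. None of the 12 was called between genotypes at any day with edgeR, and 1 of them had an unadjusted p under 0.05 at each of days 20, 22 and 26. The shares of all genes under that p were 12.5%, 14.6% and 11.5%.

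Genes that control the route were taken as a list of 11. In WT, *Crem* (0.98, adjusted p = 0.000137) and *Nr1h3*, which encodes a sterol-sensing receptor (0.87), rose, and *Creb1* (-0.60) and *Mbtps1*, a protease that cuts SREBP (-0.47), fell. In KO 2 rose and 5 fell, among them *Nr1h3* (0.97), *Crem* (0.80), *Mbtps1* (-0.77) and *Mbtps2*, the partner protease (-0.75). The counts of this list compare with 24.4% of all genes called higher and 18.1% lower in WT, and 27.2% and 24.9% in KO. *Srebf2*, which encodes SREBP2, was at -0.06 in WT (adjusted p = 0.825) and -0.36 in KO (adjusted p = 0.112) and was not called. The list medians were -0.19 in WT and -0.38 in KO, below those of the members.

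Of 12 genes of cholesterol uptake, transport and efflux, *Soat1*, which esterifies cholesterol, rose in WT (0.50) and *Npc1*, a lysosomal exporter, fell (-0.40). In KO *Npc1* (-0.84), the efflux pump gene *Abcg1* (-0.78) and the lysosomal lipase gene *Lipa* (-0.56) fell. Shares of all genes were 24.4% higher and 18.1% lower in WT, and 27.2% and 24.9% in KO. All 6 genes that turn cholesterol into steroids rose with age in WT, led by *Cyp17a1* (3.42) and *Cyp11a1* (2.97). In KO all 6 had values above 0 and 3 were called, *Hsd17b3* (2.03), *Cyp17a1* (1.69) and *Cyp11a1* (1.22). The KO minus WT difference in age change was called by edgeR for 0 of the 6. An unadjusted p under 0.05 was found there for 2, beside 10.8% of all genes. Between genotypes 1 of these 6 was called, *Hsd17b3* at day 22, which was higher in KO by 1.22 (adjusted p = 0.0423). At that day 2.51% of all genes were called. The same 6 genes are among the 8 Leydig cell markers.

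Cell-type markers moved with the age comparison as well. All 7 round spermatid markers were called higher in WT, their summed level going from between 3.79 and 12.9 CPM to between 607 and 632 CPM, and all 8 Leydig cell markers were called higher, from between 352 and 459 CPM to between 1273 and 2071 CPM. Of the 9 Sertoli cell markers 6 fell, and their sum went from between 1585 and 2258 CPM to between 968 and 1105 CPM. With the stage score as a covariate, 0 of the 8 members were called with age in WT and 1, *Fdft1*, in KO, where that fit called 0.00582% of all genes in WT (1 gene) and 9.84% in KO. In that fit the WT change of *Fdft1* was 0.79 (SE 0.37, adjusted p = 0.585). Those of *Sqle*, *Fdps* and *Cyp51* were 0.26, -0.28 and -0.04, so the last pair turned in sign. In KO the round spermatid sum went from between 11.5 and 99.2 CPM to between 639 and 700 CPM, with all 7 markers called. All 8 Leydig cell markers had values above 0 in KO, and 3 of them were called. The mean stage score ran from -3.40 in WT at day 20 to 2.52 at day 26, so age and stage cannot be told apart in WT.

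The members differed in which markers their levels followed from library to library. A list score is the mean log2 CPM of its genes, each centered on all libraries, and correlations are Pearson's r over the 24 libraries, given as a description. The libraries share their age and genotype groups, so r was also taken after each group's mean was subtracted. *Sqle* followed the round spermatid score most closely, at 0.97 over all libraries and 0.82 within groups. *Fdft1* had 0.93 and 0.58 with that score, and 0.92 and 0.63 with the pachytene score. With the Leydig cell score the within-group r of both was low, at 0.28 for *Sqle* and 0.11 for *Fdft1*.

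*Dhcr7*, *Fdps*, *Cyp51* and *Hmgcs1* had their highest within-group values, or close to them, with the Leydig cell score, at 0.88, 0.87, 0.73 and 0.70. They were also high with the macrophage score, at 0.77, 0.84, 0.62 and 0.73, so those values do not single out 1 cell type. Over all libraries *Cyp51* was at 0.871 with the Leydig cell score, 0.875 with the elongating spermatid score and 0.78 with the round spermatid score. *Hmgcs1* was at 0.40 with the Leydig cell score over all libraries. Without WT_d20_2 *Cyp51* was at 0.92 over all libraries with the Leydig cell score and at 0.91 with the round spermatid score. *Mvd* and *Lss* did not clearly stand with either set. Their within-group r with the Leydig cell score was 0.45 and 0.57, and with the round spermatid score 0.54 and 0.57. Without WT_d20_2 these were 0.58 and 0.69 with the Leydig cell score, and 0.49 and 0.53 with the round spermatid score. Among the members, *Fdft1* and *Sqle* had an r of 0.93 over all libraries and 0.57 within groups, *Fdps* and *Cyp51* 0.86 and 0.77, and *Hmgcs1* and *Fdps* 0.30 and 0.77. *Hmgcs1* and *Fdft1*, the most abundant pair per length, had -0.04 and -0.22. Without WT_d20_2 the within-group r of *Cyp51* went from 0.40 to 0.735 with the round spermatid score, from 0.73 to 0.85 with the Leydig cell score and from 0.62 to 0.80 with the macrophage score, and that of *Fdft1* with the pachytene score from 0.63 to 0.80, and the r of *Hmgcs1* with *Fdft1* over all libraries was 0.002.

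**Figure D4:**
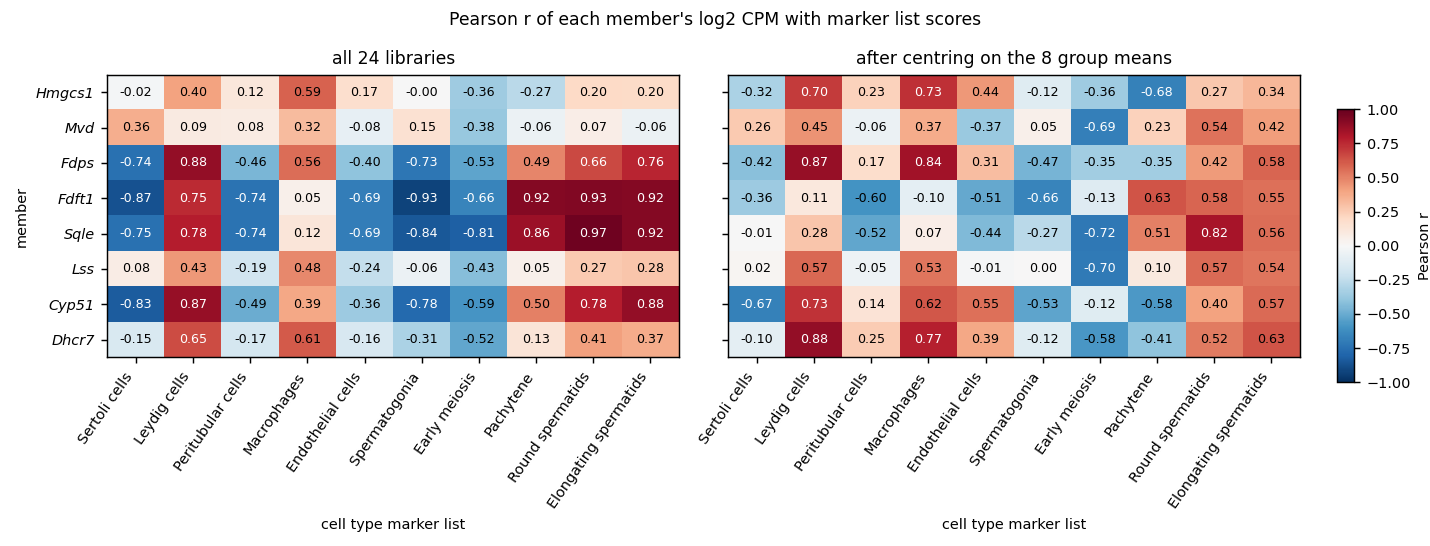
Pearson's r between each member's log2 CPM (rows) and the score of each cell-type marker list (columns), over the 24 libraries on the left and after centering on the 8 group means on the right, on a color scale from -1 (blue) to 1 (red). Within groups *Sqle* is highest with round spermatids, at 0.82, and *Dhcr7* and *Fdps* are highest with Leydig cells, at 0.88 and 0.87.

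The genes most like each member were found by the same r of log2 CPM over the 24 libraries. *Hmgcs1* was most like *Insig1*, the sterol-regulated anchor of the SREBP complex (0.83 over all libraries and 0.87 within groups), then *Elovl5*, a fatty acid elongase (0.79), and *Pros1* (0.74). *Fdft1* had *Dgka* and *Ttc39d* (0.99 each) among its most like genes, and *Sqle* was most like *Erich6* (0.98), *4930562C15Rik* and *4930484H19Rik*. *Cyp51* was most like *Psd3* (0.93), *Rnf148* and *Spata7*, and *Fdps* most like *Bhmt* (0.91), *Lcn2* and *Aldh1a7*. *Dhcr7* was most like *Hdc* (0.80), *Cobll1* and *Srd5a1*, the last a steroid reductase. *Lss* was most like *Clstn3* (0.805) and *Mvd* most like *Sept9* (0.78). *Insig1* had the same direction as *Hmgcs1* at day 26, at 27.8 and 29.1 CPM in KO and 41.6 and 34.1 CPM in WT, with a log2 fold change of -0.41 (SE 0.26, adjusted p = 0.566), and was not called.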

How the data were processed

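RNA of testes was sequenced as ribosome-depleted, strand-specific read pairs in 24 libraries. The authors aligned pairs to mm10 with STAR 2.7.11b and counted them in exons with HTSeq, using strand, keeping pairs wholly within 1 gene and discarding those with several alignments, which lowers the counts of genes that have close copies. Each deposited table holds the raw counts of 1 library by gene symbol, and the gene model version is not given in the sources used here. Unassigned pairs were left out of library sizes; those that fell in no exon were 45.1% to 58.5% of a table.

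Groups came from the labels. The methods state fewer replicates at day 20 than the labels, and all labelled libraries were used. Counts were fitted with edgeR 4.0.16 (R 4.3.3, limma 3.58.1; quasi-likelihood, robust, TMM factors, filterByExpr with a minimum count of 10), with 1 coefficient for each of the 8 groups over 24 libraries. Tests were two-sided, adjusted by Benjamini-Hochberg over 17170 genes, and called at an adjusted p under 0.05. Scripts were tested on simulated data. Log2 CPM used a prior count of 2. Alternatives were DESeq2 1.42.0 with its size factors, RLE factors, no filter, a stage score as covariate, a replicate block, the libraries compared alone, and each library left out. The direct comparison of age changes between genotypes the principal transcript lengths, and levels and correlations without WT_d20_2 were added after seeing the data. Positions and lengths are from GENCODE of mm10. The members, gene lists and markers were chosen with earlier results of these data known. All 8 members, the up to 4 called genes with the largest change in each pathway list, *Srebf2*, *Crem*, *Atad2* and the 3 genes most like each member were named by rule, and *Idi1*, *Idi2* and *Insig1* were named after their values were seen. Some genes of these lists are not reported here.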

Additional observations from a re-analysis of the deposited data

Results flagged for a closer look

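*Cyp51* in the WT libraries of day 20 had 1 library far from the others. WT_d20_2 was at 81.5 CPM, and the other 3 were at 43.6, 44.5 and 49.96 CPM. The gap was 0.833 of the range of the group, just above Dixon's 95% critical value for 4 samples. Chance marks about 1 in 20 such groups, and 32 were examined (8 members in 4 groups of 4 libraries). Without this library the WT change of *Cyp51* from day 20 to day 26 was 1.42 on the log2 scale in place of 1.22.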

How the results depend on the processing

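Of 88 values (8 members in 11 comparisons), 11 were called, and DESeq2, RLE size factors, no filter on low counts and a replicate block each changed 1 call, that of *Hmgcs1* from day 20 to day 26 in KO (adjusted p = 0.0907, 0.104, 0.064 and 0.0572). They turned the sign of values near 0: *Cyp51* for KO against WT at day 20 (-0.0029 with DESeq2 and -0.0020 with RLE factors), *Fdps* for the age change in KO minus WT (0.053, 0.055 and, with the block, 0.018) and from day 22 to day 24 in WT (0.0037 with no filter), and, with the block, *Mvd* from day 20 to day 26 in WT (0.082) and *Dhcr7* from day 22 to day 24 (0.027). With the replicate block its value was -0.42, 4 in place of 5 members were called, and no other call changed. Same-numbered KO and WT libraries of day 22 deviated from their group means with r from -0.46 to -0.03 those of day 20 with 0.07 to 0.41, and those of days 24 and 26, with 2 libraries per group, with 0.39 and 0.42. The numbers were not taken as pairs, since not every pair was above 0.1.

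A stage score as covariate moved the most. It left 0 members called in WT and 1 in KO from day 20 to day 26, and 0 in WT from day 20 to day 22 (0.00582%, 9.84% and 0.0524% of all genes). It turned these log2 fold changes, all of them uncalled in that fit. For KO against WT at day 20, *Hmgcs1* became -0.23, *Mvd* -0.42, *Fdps* -0.28, *Sqle* -0.046, *Lss* -0.29, *Cyp51* -0.52 and *Dhcr7* -0.73. At day 22 *Mvd* became -0.092, *Fdps* -0.037 and *Dhcr7* -0.015, and over the mean of the days *Sqle* -0.018, *Lss* -0.016, *Cyp51* -0.087 and *Dhcr7* -0.21. From day 20 to day 26 in WT, *Hmgcs1* became -0.31, *Fdps* -0.28, *Lss* -0.78, *Cyp51* -0.043 and *Dhcr7* -1.44, and in KO *Dhcr7* -0.85. From day 20 to day 22 in WT, *Mvd* became -0.50, *Fdps* -0.32, *Cyp51* -0.55 and *Dhcr7* -0.71, and from day 22 to day 24 *Hmgcs1* -0.019, *Mvd* -0.31, *Lss* -0.26 and *Cyp51* -0.034. For the age change in KO minus WT, *Mvd* became 0.17, *Fdps* 0.40, *Sqle* 0.023, *Lss* 0.10, *Cyp51* 0.29 and *Dhcr7* 0.59. The cause was not tested.

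With only the libraries compared in the fit, 2 members were called for KO against WT at day 26, and in WT 1 from day 20 to day 22, 3 from day 22 to day 24 and 1 from day 24 to day 26, where these fits called 12.8%, 9.06%, 9.48% and 4.26% of the genes they tested. From day 20 to day 26 they called 3 in WT (*Fdps* was lost, adjusted p = 0.0793) and 4 in KO (*Hmgcs1* was lost, adjusted p = 0.0524), with 20.2% and 57.1% of genes. Leaving out each library gave 3 to 6 members called from day 20 to day 26 in KO, with 3 without either KO library of day 26 (*Fdps* and *Hmgcs1* were lost) and 6 without KO_d20 replicate 2. It left these uncalled values with no stable sign. For KO against WT at day 20, *Hmgcs1* ran from -0.035 to 0.12, *Mvd* from -0.12 to 0.23, *Fdps* from -0.015 to 0.17, *Lss* from -0.028 to 0.19, *Cyp51* from -0.091 to 0.24 and *Dhcr7* from -0.19 to 0.24. At day 24 *Hmgcs1* ran from -0.051 to 0.12, *Mvd* from -0.32 to 0.082 and *Dhcr7* from -0.14 to 0.24, at day 26 *Fdps* from -0.083 to 0.24, *Sqle* from -0.15 to 0.0048 and *Dhcr7* from -0.64 to 0.28, and over the mean of the days *Dhcr7* from -0.048 to 0.19. From day 20 to day 26 in WT, *Mvd* ran from -0.29 to 0.0066, *Lss* from -0.0094 to 0.25 and *Dhcr7* from -0.14 to 0.78, and in KO *Dhcr7* from -0.088 to 0.34. In WT from day 20 to day 22, *Hmgcs1* ran from -0.12 to 0.052, *Mvd* from -0.070 to 0.22 and *Lss* from -0.18 to 0.055. From day 22 to day 24, *Mvd* ran from -0.15 to 0.27, *Fdps* from -0.25 to 0.16, *Lss* from -0.23 to 0.28 and *Dhcr7* from -0.31 to 0.077, and from day 24 to day 26 *Hmgcs1* from -0.036 to 0.30, *Lss* from -0.072 to 0.38 and *Dhcr7* from -0.32 to 0.63. For the age change in KO minus WT, *Fdps* ran from -0.15 to 0.16, *Fdft1* from -0.065 to 0.10 and *Dhcr7* from -0.72 to 0.19. Leaving out WT_d20_2 also turned the r over all libraries of *Mvd* with the Leydig cell score to -0.007 and with the round spermatid score to -0.133, and of *Hmgcs1* with *Fdft1* to 0.002. Days 24 and 26 had 2 libraries per genotype, which limits the precision there.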
